A study of Mus musculus with 10 samples.

Results

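The annexin family was followed in the mouse brain on day 7 of a contusion made by controlled cortical impact, in which a driven tip indents the exposed cortex. Its 10 listed genes were Anxa1 to Anxa9 and Anxa11. Of these, 9 had a probe set that named them alone, out of 30142 genes measured, and each of the 9 had 1 such probe set. Anxa11 had none: the 3 rows that list it also list the transcribed pseudogenes Gm2260 and Gm2274, whose signal cannot be separated from it, so Anxa11 is named without a value. The genes were chosen by family name, at a time when earlier results of these data were known.

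The impact was 2 mm deep and was applied to one hemisphere of adult mice, male and female per the labels, 8 to 12 weeks old. The ipsilateral group held 5 samples of tissue at the impact site, and the contralateral group held 5 samples of the corresponding region of the other hemisphere, which the labels call the control. All mice had been injured, so the contralateral tissue was not from uninjured brain. The labels name the vendor but gave no strain, no genotype and no sex of single samples, and they called the samples biological replicates without stating which arrays came from 1 mouse. There was 1 whole-transcript array for each sample, and the values are log2 signals, so a difference of 1 is a 2-fold change. The number of arrays, 5 per side, limits the precision.

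Annexins are proteins that bind negatively charged phospholipids when calcium rises, through a conserved core of repeats, while their N-terminal tails differ and carry the contacts with other proteins. They take part in resealing of torn plasma membrane, in endocytosis and exocytosis, in the resolution of inflammation and in the handling of dying cells. In brain, several of them are expressed mainly in microglia, macrophages, vessels, meninges or reactive astrocytes, and others also in neurons.

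Several facts of the whole series touch the annexin values. The neuronal marker Snap25 stood at a mean of 18.18 ipsilaterally and 18.32 contralaterally, so the neural tissue named in the labels was seen on both sides. Xist lay between 4.53 and 4.67 on all arrays, while Uty, Kdm5d and Eif2s3y of the Y chromosome lay between 7.75 and 8.88, so the arrays did not show the females that the labels include. Choroid plexus markers separated the arrays by number: Ttr, the transthyretin gene, stood at 15.87 and 16.54 on ipsilateral and contralateral replicate 2 and at 13.64 and 12.66 on ipsilateral and contralateral replicate 4, against 5.83 to 7.55 on the other 6 arrays. Ipsilateral replicate 1 stood apart in Gad1, which makes the transmitter GABA (14.65 against 11.72 to 12.42 on the other 9 arrays), and in the transcription factor gene Sall1 (10.02 against 7.78 to 8.70). The part of this in the annexin values was not tested. The array medians over all rows were 4.79 to 4.84 ipsilaterally and 4.71 to 4.77 contralaterally, and signal above background was not shown for probe sets near or below these values. Over all genes tested, 1305 were lower and 369 higher ipsilaterally at an adjusted p under 0.05, which is 4.33% and 1.22% (22.0% of the calls upward). With each array centred on its median the counts were 2130 lower and 225 higher (9.55% upward), and with cyclic loess scaling 970 lower and 464 higher (32.4% upward).

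Promoter windows are shown for Anxa1, Anxa2, Anxa4 and Anxa5, which had the largest differences between sides among the members with a window and had the same arrays, ipsilateral replicates 4 and 5, at the top. Each window runs from 250 bases before to 50 bases after an annotated start in the RefSeq table of GRCm38.p6, 5′ to 3′ on the strand of the gene. Capitals mark matches, on either strand, to 4 short motifs: TATAAA, the TATA box; TGANTCA, the AP-1 site; GGGCGG, the GC box; and TTCNNNGAA, a STAT site. No marked match overlaps another. The Anxa1 window is chr19:20390622-20390921 (minus strand), that of Anxa2 is chr9:69453433-69453732 (plus strand), the one of Anxa4 is chr6:86793535-86793834 (minus strand, the more upstream of its 2 windows), and that of Anxa5 is chr3:36475838-36476137 (minus strand).
Anxa1: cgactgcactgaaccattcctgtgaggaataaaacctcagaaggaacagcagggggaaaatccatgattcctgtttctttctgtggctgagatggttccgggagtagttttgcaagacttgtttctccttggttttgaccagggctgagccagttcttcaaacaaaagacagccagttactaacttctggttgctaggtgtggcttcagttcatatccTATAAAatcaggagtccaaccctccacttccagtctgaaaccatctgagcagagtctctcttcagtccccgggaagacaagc
Anxa2: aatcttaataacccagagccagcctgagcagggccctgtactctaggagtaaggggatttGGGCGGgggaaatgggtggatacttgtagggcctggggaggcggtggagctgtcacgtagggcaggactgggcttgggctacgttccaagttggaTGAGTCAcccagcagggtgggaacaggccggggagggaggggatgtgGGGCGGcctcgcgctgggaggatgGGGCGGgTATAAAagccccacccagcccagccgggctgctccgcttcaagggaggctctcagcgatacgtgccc
Anxa4: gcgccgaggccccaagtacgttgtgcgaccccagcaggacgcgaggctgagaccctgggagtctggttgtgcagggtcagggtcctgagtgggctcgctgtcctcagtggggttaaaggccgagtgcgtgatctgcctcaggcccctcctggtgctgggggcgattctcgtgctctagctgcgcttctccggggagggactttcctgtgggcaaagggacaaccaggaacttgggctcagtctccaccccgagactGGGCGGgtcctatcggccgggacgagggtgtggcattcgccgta
Anxa5: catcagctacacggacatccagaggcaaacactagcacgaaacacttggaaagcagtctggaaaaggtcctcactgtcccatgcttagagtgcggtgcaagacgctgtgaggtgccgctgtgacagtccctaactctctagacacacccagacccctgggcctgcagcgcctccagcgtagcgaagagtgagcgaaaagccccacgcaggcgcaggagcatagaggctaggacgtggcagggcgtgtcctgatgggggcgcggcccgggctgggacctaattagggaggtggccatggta

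The windows differed in these letters. Anxa1 had 1 TATA box, beginning 32 bases before the start (-32), and no other match. Anxa2 had a TATA box at -17, an AP-1 match with the letters TGAGTCA at -95 and GC boxes at -190, -48 and -24. Anxa4 had 1 GC box, at position 7 after the start, and the Anxa5 window held none of the 4 motifs. Anxa7 and Anxa8 had the same pair of arrays at the top, and of their windows the overlapping pair of Anxa7 held 1 and 4 GC boxes and no other match, while that of Anxa8 held none of the 4. Among all 32817 windows of this length, 13.6% held the TATA motif, 7.81% the AP-1 motif, 35.6% the GC box and 8.29% the STAT motif. The matches are a description of letters and not of binding. Windows were found for 9 of 12 annexin genes, and Anxa3, Anxa6 and Anxa13 had no entry.

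The comparison between sides asked which annexin transcripts differed at the impact site. In limma, 0 of the 9 measured members passed an adjusted p of 0.05 in either direction, where 5.55% of all genes tested did. At an unadjusted p under 0.05 there were 3 members (Anxa2, Anxa3 and Anxa4), where 21.3% of all genes lay. The ipsilateral mean was above the contralateral mean for 8 members and below it for Anxa6, where it was above for 16915 of all 30142 genes. Of the 8, Anxa7 (0.016) and Anxa8 (0.002) were close to no difference and were negative with median scaling. The median log2 fold change of the 9 was 0.31 (range -0.13 to 0.78), beside 0.02 over all genes. The groups were fully apart for 0 of the 9, and for 7.25% of all genes. In bulk tissue a change in the number of cells of a type and a change in RNA per cell cannot be told apart.

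**Figure D1:**
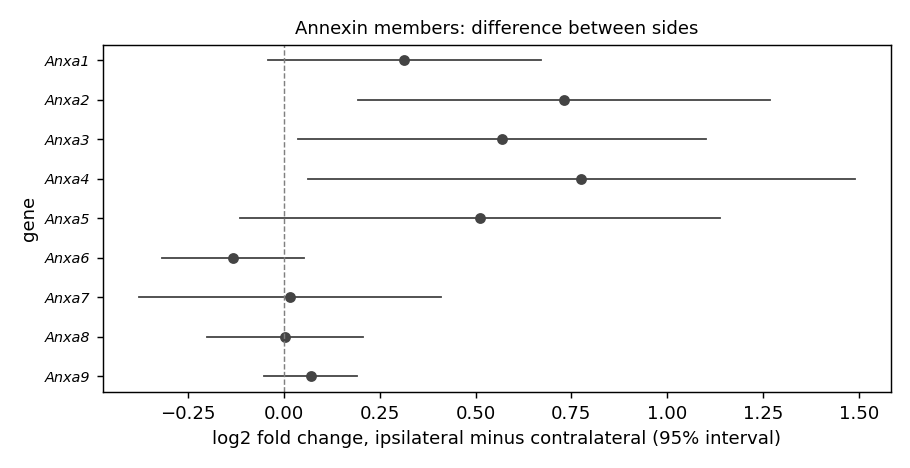
Log2 fold change (ipsilateral minus contralateral, x axis) of the 9 measured annexin genes (y axis), with points for the difference of means over 5 arrays per side and lines for the 95% interval of the limma fit. The intervals of Anxa2, Anxa3 and Anxa4 lie above 0 before adjustment for the number of genes, and no member passed after it.

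Anxa2, whose product pairs with S100a10 at the cell surface and assists plasminogen activation, had the smallest p of the family. Its log2 signals were 6.13, 6.43, 6.67, 7.20 and 7.56 on ipsilateral replicates 1 to 5, and 5.77, 6.20, 6.05, 6.35 and 5.97 on contralateral replicates 1 to 5. Of the ipsilateral arrays, 4 lay above every contralateral array, and only replicate 1 lay within the contralateral range. The means were 6.80 ± 0.58 (SD, n = 5) and 6.07 ± 0.22 (SD, n = 5), a log2 fold change of 0.73 ± 0.24 (SE) with a 95% interval of 0.19 to 1.27 and an adjusted p of 0.115 in limma. Without ipsilateral replicate 1 the log2 fold change of Anxa2 was 0.90 and it passed the test (limma adjusted p = 0.0359). Over all genes, 760 were called higher and 1607 lower in this setting, beside 369 and 1305 with all arrays. Without any other single array Anxa2 did not pass. As given above, ipsilateral replicate 1 also stood apart in Gad1 and Sall1.

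Anxa4, which binds membranes and is known from secretory epithelia, had the largest difference of means over the 10 arrays. Its ipsilateral log2 signals on replicates 1 to 5 were 6.80, 7.26, 7.15, 8.25 and 8.67, and its contralateral ones were 6.70, 7.14, 6.84, 6.56 and 7.01. Replicates 4 and 5 of the ipsilateral side stood more than 1 log2 unit above every contralateral array, ipsilateral replicates 2 and 3 lay just above the highest contralateral array, and ipsilateral replicate 1 lay inside the contralateral range. The difference on the log2 scale was 0.78 ± 0.32 (SE), with a 95% interval of 0.06 to 1.49 and a limma adjusted p of 0.198. Without ipsilateral replicate 5 it was 0.52, below the 0.54 of Anxa2 in the same setting, and Anxa2 was also the larger without ipsilateral replicate 4, without contralateral replicate 4 and without the arrays of number 2 and 4 of both sides.

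Anxa3, a gene known for expression in microglia and in growing vessels, stood at 7.50, 7.47, 7.75, 8.61 and 8.69 ipsilaterally and at 7.36, 7.65, 7.38, 7.36 and 7.43 contralaterally, in the order of replicates 1 to 5. Ipsilateral replicates 4 and 5 were far above the rest, and the remaining 3 ipsilateral arrays lay near the contralateral ones. Its log2 fold change was 0.57 ± 0.24 (SE), with a 95% interval of 0.04 to 1.10 and a limma adjusted p of 0.206. The contralateral spread was small (SD 0.12, n = 5) and the ipsilateral spread large (SD 0.60, n = 5).

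Anxa5, whose protein binds phosphatidylserine on dying cells and serves as a laboratory probe for them, stood at 11.18, 11.04, 11.40, 12.13 and 12.67 ipsilaterally. Its contralateral signals were 11.26, 11.40, 11.23, 10.83 and 11.14. Again ipsilateral replicates 4 and 5 were the highest, and ipsilateral replicates 1 to 3 fell within the contralateral range. The log2 fold change was 0.51 ± 0.28 (SE), with a 95% interval of -0.11 to 1.14 and a limma adjusted p of 0.337. It was 0.27 without ipsilateral replicate 5.

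Anxa1, a glucocorticoid-induced protein that dampens inflammation through formyl peptide receptors, stood at 5.30, 5.54, 5.53, 5.91 and 6.22 ipsilaterally. On the contralateral arrays it stood at 5.34, 5.36, 5.60, 5.49 and 5.14. Only ipsilateral replicates 4 and 5 exceeded the contralateral range. The log2 fold change was 0.31 ± 0.16 (SE), with a 95% interval of -0.04 to 0.67 and a limma adjusted p of 0.298. Leaving out ipsilateral replicate 5 gave 0.18.

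**Figure D2:**
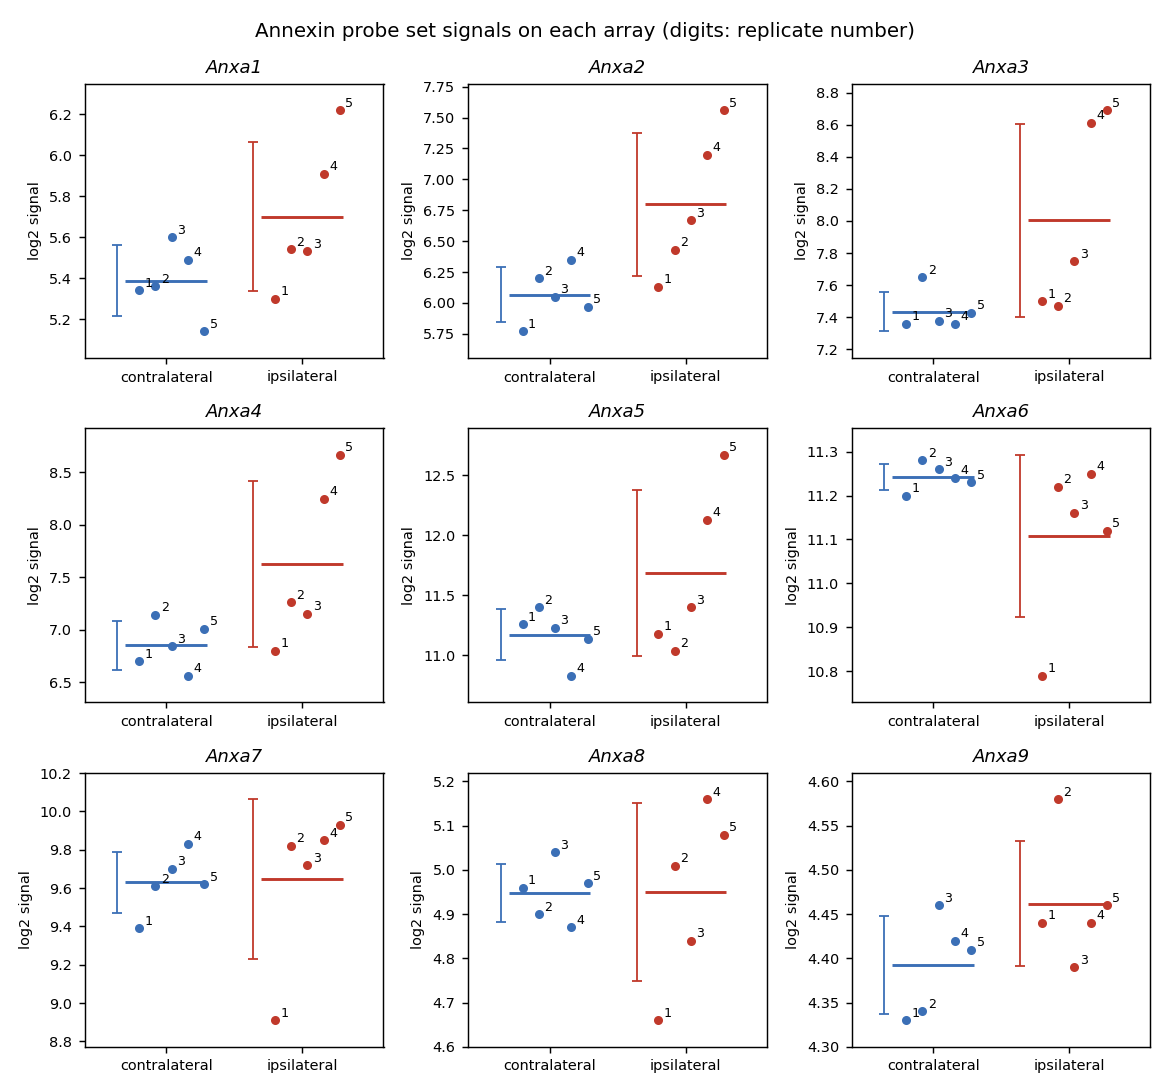
Log2 signal (y axis, a separate scale in each panel) of the 9 measured annexin genes on the 5 contralateral (blue) and 5 ipsilateral (red) arrays (x axis), with digits for the replicate number, horizontal lines for the mean and vertical bars for the SD. Ipsilateral replicates 4 and 5 are the highest for Anxa1, Anxa2, Anxa3, Anxa4, Anxa5, Anxa7 and Anxa8, and ipsilateral replicate 1 is the lowest for Anxa6, Anxa7 and Anxa8.

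Anxa6, a large member with a duplicated core that is found in neurons as well as in other cells, was the only one with a lower ipsilateral mean. It stood at 10.79, 11.22, 11.16, 11.25 and 11.12 ipsilaterally and at 11.20, 11.28, 11.26, 11.24 and 11.23 contralaterally. Ipsilateral replicate 1 was apart from the other arrays, and the contralateral arrays spanned 0.08. The log2 fold change was -0.13 ± 0.08 (SE), with a 95% interval of -0.32 to 0.05 and a limma adjusted p of 0.403. The difference was -0.05 without ipsilateral replicate 1, -0.07 with quantile and -0.04 with cyclic loess scaling, and -0.21 without the arrays of number 2 and 4 of both sides.

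Anxa7, also called synexin, which promotes membrane fusion and binds sorcin, stood at 8.91, 9.82, 9.72, 9.85 and 9.93 ipsilaterally and at 9.39, 9.61, 9.70, 9.83 and 9.62 contralaterally. Ipsilateral replicate 1 was the lowest of all arrays, and 2 ipsilateral arrays were above all contralateral ones. The log2 fold change was 0.02 ± 0.18 (SE), with a 95% interval of -0.38 to 0.41 and a limma adjusted p of 0.974. Its sign was not stable: the log2 fold change was 0.20 without ipsilateral replicate 1, -0.05 with median scaling, and between -0.055 and -0.0025 without ipsilateral replicate 2, 3, 4 or 5 or contralateral replicate 1.

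Anxa8 and Anxa9, the latter an atypical member with weak calcium binding, were near the array medians, where signal above background was not shown. Anxa8 ran from 4.66 to 5.16 ipsilaterally (median 5.01) and from 4.87 to 5.04 contralaterally (median 4.96), with a log2 fold change of 0.00 ± 0.09 (SE) that was negative with quantile, median and cyclic loess scaling. Anxa9 ran from 4.39 to 4.58 ipsilaterally (median 4.44) and from 4.33 to 4.46 contralaterally (median 4.41), with a log2 fold change of 0.07 ± 0.05 (SE) that was 0.01 to 0.03 with those scalings and without the arrays of number 2 and 4 of both sides, and 0.04 without ipsilateral replicate 2. Their 95% intervals were -0.20 to 0.21 and -0.05 to 0.19, and their limma adjusted p were 0.995 and 0.511. Anxa10 (log2 fold change 0.03, limma adjusted p = 0.857) and Anxa13 (0.08, limma adjusted p = 0.682), which complete the mouse family and are known from stomach and gut, also lay below the array medians on both sides in their means.

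The members shared an order of arrays. Ipsilateral replicates 4 and 5 were the 2 highest of the 10 arrays for 7 of the 9 members, all but Anxa6 and Anxa9. The same was true of 2948 genes, or 9.78% of all genes tested. This pair of arrays was chosen after the member values had been seen, so the 2 shares are a description and not a test. The SD was larger on the ipsilateral side for 9 of 9 members, and for 63.6% of all genes. The ipsilateral range of Anxa4 was 1.87 against 0.58 contralaterally, that of Anxa5 was 1.63 against 0.57, and that of Anxa3 was 1.22 against 0.29.

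The means of several marker lists, though not of all, were highest or lowest on the same arrays. The mean log2 signal of 7 astrocyte genes was 11.14 and 11.72 on ipsilateral replicates 4 and 5, 9.44 to 10.11 on the other 3 ipsilateral arrays, and 8.66 to 9.62 contralaterally. For 5 microglial genes it was 9.23 and 9.16 on ipsilateral replicates 4 and 5, 8.42 to 8.68 on the other ipsilateral arrays and 8.05 to 8.44 contralaterally. The 8.68 is that of ipsilateral replicate 1 and includes Sall1, which is in this list and stood apart there (10.02). Macrophage and monocyte genes (7 measured) stood at 6.14 and 6.59 on ipsilateral replicates 4 and 5. They lay between 5.58 and 5.92 on the other 3 ipsilateral arrays and between 5.21 and 5.50 contralaterally, so that the sides did not overlap. Fibroblast and leptomeningeal genes (7 measured) were highest on ipsilateral replicate 5 (9.93), ran from 8.01 to 8.77 on the other ipsilateral arrays, and from 6.76 to 7.96 contralaterally, so that the sides did not overlap. Neuronal genes (6 measured) were lowest on ipsilateral replicates 4 (14.04) and 5 (14.13). They stood at 14.76, 14.37 and 14.53 on ipsilateral replicates 1 to 3 and ran from 14.61 to 14.89 contralaterally. The 14.76 lies inside the contralateral range and includes Gad1, which is in this list and stood apart there (14.65). Some lists did not follow this order. Ipsilateral replicate 3 was above replicate 4 for fibroblast (8.77 and 8.58), pericyte (8.87 and 8.72) and endothelial genes (9.43 and 9.36). Oligodendrocyte genes stood at 11.32 and 10.965 on ipsilateral replicates 4 and 5, inside the contralateral range of 10.585 to 11.85. On ipsilateral replicates 1 to 3 they stood at 10.06, 10.28 and 10.055, below every contralateral array. The part of these cell types in the annexin values was not tested.

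**Figure D3:**
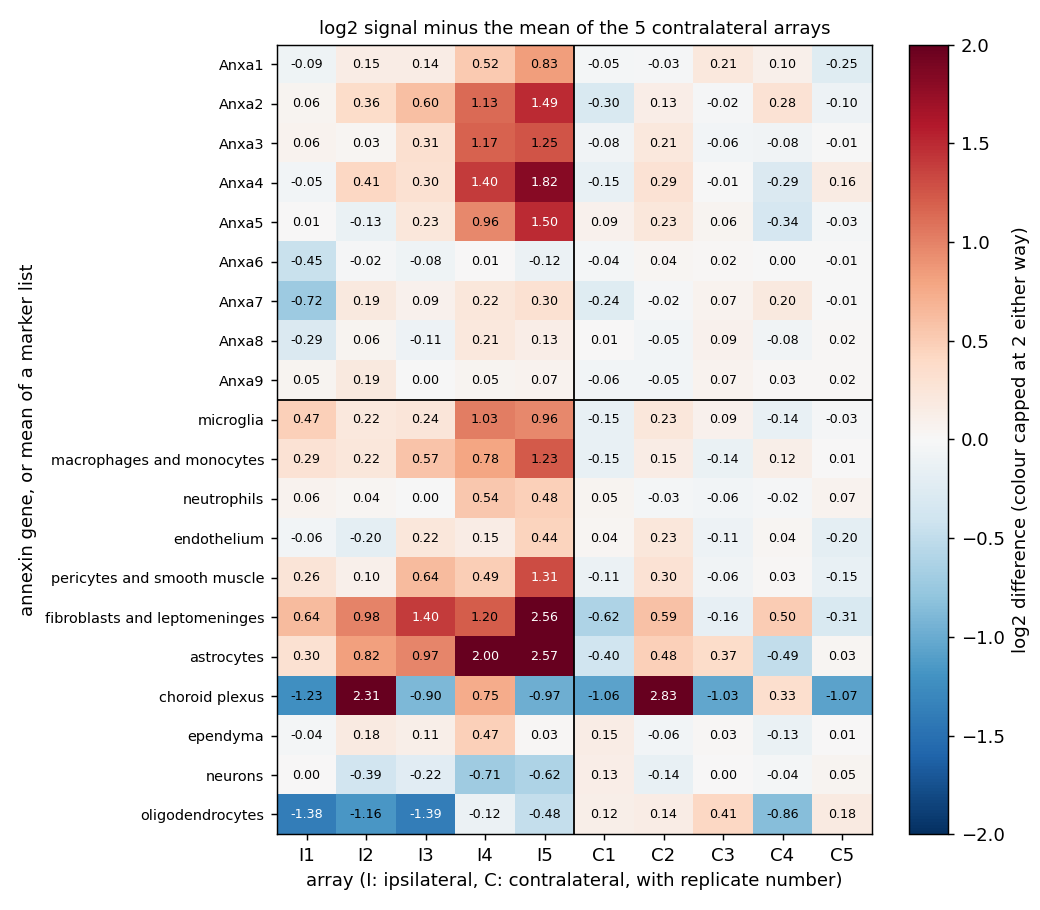
Log2 signal of the 9 annexin genes (upper rows) and mean log2 signal of 11 marker lists (lower rows), each minus its mean over the 5 contralateral arrays, on the 10 arrays (columns, I for ipsilateral and C for contralateral). Anxa1 to Anxa5 and the microglial, macrophage, neutrophil and astrocyte lists have their highest values on ipsilateral replicates 4 and 5, while choroid plexus genes are highest on the arrays numbered 2 on both sides.

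The test was passed by 1 of 7 astrocyte, 1 of 7 macrophage, 2 of 7 fibroblast and 2 of 6 neuronal genes. Over all genes tested, 5.55% passed. Of the astrocyte list Aqp4, the water channel, rose by 0.95, while Slc1a3, a glutamate transporter, had a log2 fold change of 0.47 (limma adjusted p = 0.0623). The largest differences of this list did not pass: Serpina3n 3.13, Gfap 2.07, Vim 2.06 and Cd44 1.01 (limma adjusted p = 0.0876, 0.0814, 0.0937 and 0.122). The folate enzyme gene Aldh1l1 was the only one of the 7 astrocyte genes with a lower ipsilateral mean (-0.36, limma adjusted p = 0.121). Of the macrophage list the scavenger receptor Cd163 rose by 0.47, and the platelet factor gene Pf4 had 0.49 (limma adjusted p = 0.0718). Of the fibroblast list the proteoglycan Dcn and the collagen chain Col1a1 rose, by 2.88 and 0.80. Of the neuronal list Nrgn, a calmodulin-binding protein, fell by 1.39 and the splicing factor Rbfox3 by 0.54. Gad1 was the only one of the 6 neuronal genes with a higher ipsilateral mean (0.21, limma adjusted p = 0.855). When single arrays were left out, the limma adjusted p of Cd163 reached 0.0528, 0.0663, 0.0652 and 0.0564 without ipsilateral replicate 4 and contralateral replicates 1, 3 and 5. That of Dcn was 0.0515 to 0.0672 without ipsilateral replicates 2, 4 and 5 and contralateral replicates 1, 3 and 5, and that of Col1a1 was 0.0577 to 0.0963 without ipsilateral replicates 3 and 4 and each contralateral replicate. Quantile scaling also ended the call of Col1a1 (limma adjusted p = 0.0509). With the arrays of number 2 and 4 of both sides left out, Nrgn alone of these 6 called genes passed. Fewer arrays remained in this setting, and over all genes 77 were called higher and 289 lower. The log2 fold changes there were 0.98 for Aqp4, 0.57 for Cd163, 2.94 for Dcn, 1.06 for Col1a1, -1.56 for Nrgn and -0.47 for Rbfox3.

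In the remaining lists 0 markers passed in limma. An unadjusted p under 0.05 was found for 21.3% of all genes. In the lists above it was found for 7 of 7 astrocyte, 6 of 7 macrophage, 6 of 7 fibroblast and 3 of 6 neuronal genes. The microglial genes Csf1r and Cx3cr1 had log2 fold changes of 0.90 and 0.77, and 3 of the 5 had an unadjusted p under 0.05. The pericyte and smooth muscle genes Vtn and Acta2 had 0.73 and 1.43 (3 of 5 at an unadjusted p under 0.05), and the endothelial genes Itm2a and Flt1 had 0.59 and -0.36 (3 of 6). The oligodendrocyte genes Mog and Mobp had -1.32 and -1.21 (3 of 4). Neutrophil genes, represented by Camp at 0.13 and Ngp at 0.21 (1 of 5), had list means of 4.40 to 4.95 ipsilaterally and 4.35 to 4.47 contralaterally, mostly below the array medians. The highest list means were those of ipsilateral replicates 4 (4.95) and 5 (4.89). The largest difference of this list was that of S100a8, 0.60 (limma adjusted p = 0.296). Ependymal genes (Tmem212 0.27, Rarres2 0.16) and choroid plexus genes (Kl 0.37, Otx2 0.07) had 0 of 3 and 0 of 6 at an unadjusted p under 0.05. The choroid plexus list had 4 positive and 2 negative log2 fold changes, the negative ones being Ttr (-0.50) and the channel gene Clic6 (-0.01), with a median of 0.01.

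Genes whose arrays varied most like an annexin were taken for Anxa2, Anxa3 and Anxa4, the members with the largest statistics. The likeness is Pearson's r of the deviations from the side means over 10 arrays, the highest among 11765 genes, and it is a description without a test. These 11765 genes had a 10-array mean above the median of all genes. Symbols that begin with LOC or with Gm and digits, or that end in Rik, were left out. Nearest to Anxa3 were the cytokine gene Tgfb1 (r = 0.994), the membrane gene Ms4a6d (0.993) and the endocytosis gene Necap2 (0.984), and r was 0.990, 0.987 and 0.956 without the 2 arrays farthest from the median, ipsilateral replicates 4 and 5. Nearest to Anxa4 were Ms4a6c (r = 0.986), the zinc transporter Slc39a1 (0.986) and the cytochrome Cyp4f14 (0.983). Nearest to Anxa2 were the lipid transporter gene Abca9 (r = 0.976), Serinc3 (0.975) and Stom, which encodes the membrane protein stomatin (0.974). For these 6 genes r was 0.927 to 0.976 without ipsilateral replicates 1 and 5, and Spearman's rho over 10 arrays ran from 0.952 to 0.988 for all 9. In both omissions the deviations were still taken from the side means of all 5 arrays. The left-out arrays therefore still shaped these r values through the means, and likeness fully without them was not tested. The log2 fold changes of the 9 genes ran from -0.11 (Cyp4f14) to 1.04 (Ms4a6c), and none of them passed the test.

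Genes that act with annexins were described from 5 further lists. Of 5 measured binding partners 0 passed in limma, and 0 had an unadjusted p under 0.05, beside 21.3% of all genes. The S100 proteins are small calcium-binding proteins that dock on annexin tails. S100a6 stood at 6.48, 6.45, 6.63, 7.72 and 7.77 ipsilaterally and at 6.29 to 6.67 contralaterally (median 6.58), so ipsilateral replicates 4 and 5 were again the highest, with a log2 fold change of 0.48 ± 0.27 (SE). S100a10, the partner of Anxa2, had 0.14 ± 0.09 (SE) at means of 4.70 and 4.55, below the array medians. S100a4 had 0.33, Sri, the sorcin gene, 0.09, and the calcium sensor Pdcd6, which binds Anxa7 and Anxa11, -0.13, and the list's median was 0.14. S100a11 and Ahnak had no probe set that named them alone.

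Of the genes around Anxa1, the glucocorticoid receptor Nr3c1 fell. It stood at 10.05, 10.15, 10.22, 10.44 and 10.37 ipsilaterally and at 10.96, 10.75, 10.77, 10.58 and 10.81 contralaterally, with every ipsilateral array below every contralateral one. This gave a log2 fold change of -0.53 ± 0.09 (SE), with a limma adjusted p of 0.00854; the adjusted p was 0.0545 without the arrays of number 2 and 4 of both sides. The glucocorticoid-induced gene Tsc22d3 had -0.35 (limma adjusted p = 0.150) and the cytosolic phospholipase Pla2g4a 0.24 (limma adjusted p = 0.431). The list's median was -0.35. Fpr1 and Fpr2, the receptor genes, had no row that could be named.

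Of 4 measured genes of plasminogen activation, Plat, the tissue plasminogen activator, rose. Its log2 signals were 9.87, 9.72, 10.09, 10.04 and 10.37 ipsilaterally and 9.09, 9.31, 9.32, 9.58 and 9.20 contralaterally, without overlap. The rise was 0.72 ± 0.13 (SE) with a limma adjusted p of 0.00886, and it passed in all of the 22 other settings tried, up to 0.0429. Plg had 0.13 (limma adjusted p = 0.304), Plau 0.09 and the receptor Plaur 0.07, and the means of Plg and Plaur lay below the array medians. The list's median was 0.11.

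Phosphatidylserine, the lipid that annexins bind, is exposed by scramblases and recognised by receptors and bridging proteins. Of 12 measured genes 1 rose and 1 fell, where 1.22% of all genes were called higher and 4.33% lower, and the list median was 0.00. Ano6, a calcium-activated scramblase, stood at 8.88, 8.71, 8.91, 8.95 and 9.11 ipsilaterally and at 7.93, 8.30, 8.14, 8.51 and 7.98 contralaterally, without overlap, a log2 fold change of 0.74 ± 0.12 (SE) with a limma adjusted p of 0.00515 (up to 0.0319 in the other settings). Tyro3, a receptor tyrosine kinase that reads phosphatidylserine through Gas6 and Pros1, stood at 9.86, 9.28, 9.44, 9.46 and 9.01 ipsilaterally and at 10.21, 9.87, 10.16, 10.10 and 10.12 contralaterally. The sides were apart by a narrow margin, and the log2 fold change was -0.68 ± 0.14 (SE) with a limma adjusted p of 0.0165. The call of Tyro3 ended without contralateral replicate 1 (0.0529) and without the arrays of number 2 and 4 of both sides (0.159).

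The other 10 genes of the list did not pass. Xkr8, a caspase-activated scramblase, had 0.36 (limma adjusted p = 0.0776), and the bridging protein Pros1 had 0.61 (limma adjusted p = 0.195). Adgrb1, a phosphatidylserine receptor also called Bai1, had -0.38 (limma adjusted p = 0.171). The related receptors Axl and Mertk had 0.23 and -0.04. In plasma membrane repair annexins form a cap over the wound. Of 9 measured genes of this list 0 passed in limma and 3 had an unadjusted p under 0.05, beside 21.3% of all genes. The ferlin Myof had 0.60 (limma adjusted p = 0.0753), Capns1, the small calpain subunit, 0.38 (0.125), and Chmp4b of the membrane-severing ESCRT complex -0.14 (0.189). The median of this list was 0.07. Over all 35 measured genes of these lists, Anxa10 and Anxa13 included, 2 were higher and 2 lower, beside 1.22% and 4.33% of all genes. Without ipsilateral replicate 1, 5 of the 35 were higher, where 760 of all 30142 genes were, beside 369 with all arrays. After the dimmer 50% of genes were left out, 4 of the list genes that remained were higher. In that setting 534 of 15070 genes were higher. Without contralateral replicate 1, 1 of the 35 was lower, where 740 of all genes were, beside 1305 with all arrays.

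**Figure D4:**
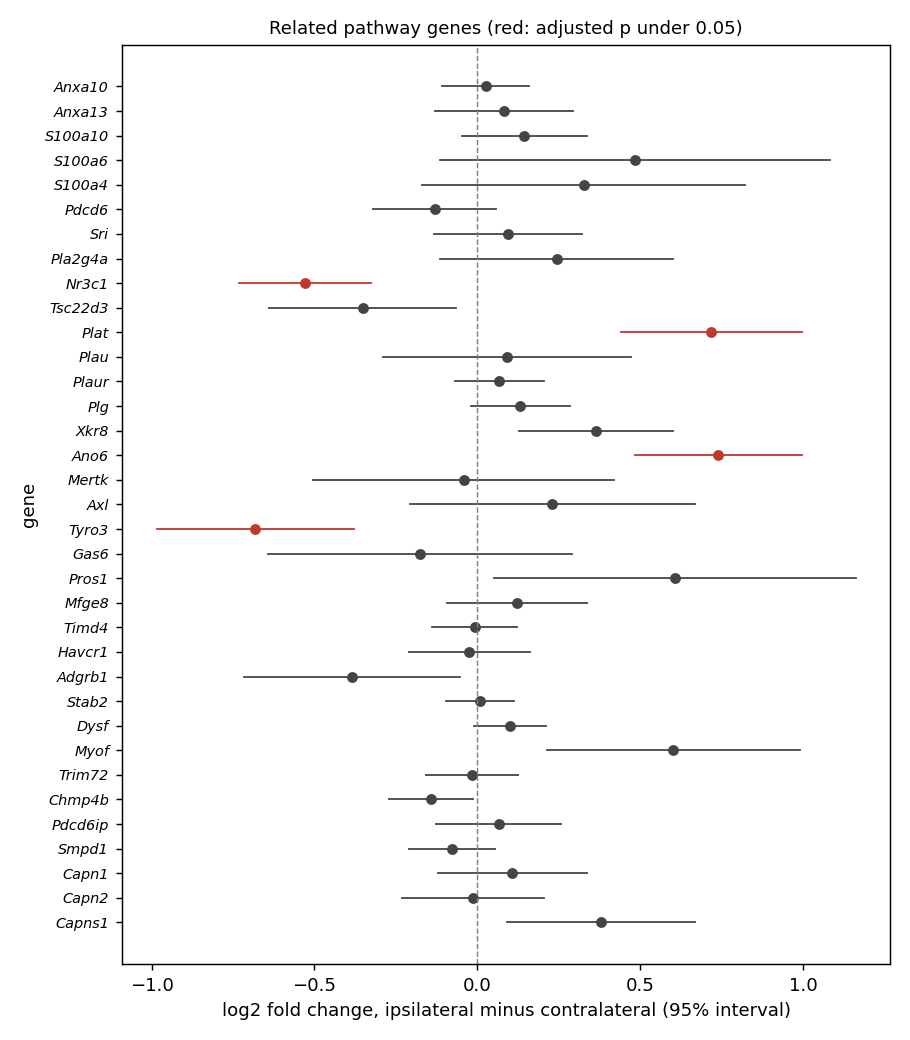
Log2 fold change (ipsilateral minus contralateral, x axis) of the measured genes of the related lists (y axis), with points for the difference of means over 5 arrays per side, lines for the 95% interval of the limma fit, and red for an adjusted p under 0.05. Plat and Ano6 lie above 0 and Nr3c1 and Tyro3 below it.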

How the data were processed

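The authors deposited log2 signals, 1 column per array. The submitters' processing notes name Transcriptome Analysis Console 4.0. That the scale is log2 follows from the range of the values (1.97 to 19.93). How the authors corrected background and normalized, and on which genome build, is not given in the sources used here. Of 65956 rows, 30604 named 1 gene symbol, 2146 several (left out) and 33206 none. Symbols were updated through Entrez identifiers (GRCm38.p6, 827 updated), and the brightest row per gene gave 30142 genes.

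The difference between sides, ipsilateral minus contralateral, was fitted over the 10 arrays with lmFit and eBayes of limma 3.58.1 under R 4.3.3, with statmod 1.5.0 for the random block and without covariates. Calls used a two-sided Benjamini-Hochberg adjusted p under 0.05 over all genes. The steps were also run on simulated data with independent noise and, for each gene, the same SD on both sides. The SD of the members was larger ipsilaterally for 9 of 9, so that run does not bear on the lack of calls among them. Named were the members, called genes and the 2 largest statistics of each list, and the 3 nearest genes of 3 members. S100a4, S100a8, Sri, Pdcd6, Pla2g4a, Plau, Plaur, Xkr8, Pros1, Adgrb1, Aldh1l1, Serpina3n, Gfap, Vim, Cd44, Clic6, Gad1, Sall1, Axl, Mertk, Chmp4b, Snap25, Ttr and the sex-linked genes were named in addition, after their values had been seen. Members and lists were chosen with earlier results of these data known, and the omission of the arrays numbered 2 and 4 after seeing the data. The labels gave no batch. P-values measure the spread between these samples, which may be partly technical.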

Additional observations from a re-analysis of the deposited data

Results flagged for a closer look

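Within groups of 5 arrays, 1 array stood apart from the other 4 by more than 0.71 of the group's range in 6 of 88 groups checked (44 genes on 2 sides), where chance gives about 1 in 20. Ipsilateral replicate 1 was such an array for Anxa6 (10.79 against 11.12 to 11.25), for Anxa7 (8.91 against 9.72 to 9.93) and for Sri (7.68 against 8.04 to 8.16). Contralateral replicate 2 was high for Anxa3 (7.65 against 7.36 to 7.43). Contralateral replicate 4 was high for Xkr8 (6 against 5.63 to 5.73), and contralateral replicate 1 for Timd4 (4.17 against 3.95 to 4.01), whose values lay below the array medians.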

How the results depend on the processing

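With 22 other settings, 0 annexins were called lower in any and 0 higher in all but 1: leaving out single arrays gave 0 to 1 higher, the 1 being Anxa2 without ipsilateral replicate 1. Anxa1 to Anxa5 kept a positive and Anxa6 a negative log2 fold change in every setting that held them. Anxa1, Anxa8 and Anxa9 were not among the genes left after the dimmer 50% were removed. Anxa7 was negative with median scaling (-0.046) and without ipsilateral replicates 2 (-0.0275), 3 (-0.0025), 4 (-0.035) and 5 (-0.055), contralateral replicate 1 (-0.044) and the arrays numbered 2 and 4 (-0.05), with a range over single arrays of -0.055 to 0.20. Anxa8 was negative with quantile (-0.0632), median (-0.06) and cyclic loess scaling (-0.0447), without ipsilateral replicates 2 (-0.013), 4 (-0.0505) and 5 (-0.0305), and contralateral replicates 2 (-0.01) and 4 (-0.0175), and also when the arrays with numbers 2 and 4 were left out (-0.13); without single arrays it ran from -0.0505 to 0.0745. The cause was not tested. The labels do not say that equal replicate numbers mark 1 mouse, and same-numbered arrays had correlations of deviations of 0.259, 0.255, -0.043, -0.399 and -0.035. The number as a fixed replicate block gave 0 annexins, and of the related lists 1 lower gene, Tyro3 (limma adjusted p = 0.0305), with the call of Nr3c1 lost (0.0584). It also ended the calls of Cd163 (0.0507) and Col1a1 (0.112), and gave 177 higher and 769 lower over all genes. Of the related lists, 4 genes were higher without the dimmer 50%, 1 was lower at a threshold of 0.01 and 0 without the arrays numbered 2 and 4, and leaving out single arrays gave 2 to 5 higher and 1 to 3 lower. Over all genes, 656 were higher with array weights and 534 of 15070 without the dimmer 50%. There were 225 higher and 2130 lower with median scaling, 47 and 537 at a threshold of 0.01, and 77 and 289 without the arrays numbered 2 and 4. Leaving out single arrays gave 111 to 760 higher and 740 to 1607 lower.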
